A study of Mus musculus with 12 samples.

Results

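Glucose uptake, glycolysis and the entry of pyruvate into mitochondria are described here through 41 genes, of 47729 genes in the files. The 41 were taken by symbol from a list of carriers and enzymes, with no measured value in the rule. They divide into 5 muscle-type isoforms (Pfkm, Pgam2, Eno3, Pygm and Fbp2) and 36 common members. All 41 symbols were found and all 41 passed the filter on low counts.

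The samples were 12 RNA-seq libraries of mouse fat whose nerve supply had been cut by surgery. The mice were wild-type males of the C57BL/6J strain, aged 6 to 10 weeks, on a low-fat rodent diet. The 4 fat depots, with 3 libraries each, were brown fat from between the shoulder blades (interscapular, BAT) and white fat from the epididymal (EWAT), inguinal (IWAT) and retroperitoneal (RWAT) sites. Every depot had been denervated and no intact fat was analysed here, so what follows compares denervated depots with each other and measures no effect of denervation. The labels give no animal for a library, so p-values measure only the spread between these libraries, which may be technical.

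Fat cells take up glucose through carriers of the Slc2a family. Slc2a4 (GLUT4) is the insulin-responsive carrier of fat and muscle, and Slc2a1 (GLUT1) and Slc2a3 (GLUT3) serve many cell types. Hexokinase traps the sugar as glucose 6-phosphate, glycolysis turns it into pyruvate, and pyruvate is reduced to lactate, carboxylated to oxaloacetate, or carried into mitochondria and oxidised by pyruvate dehydrogenase. In fat, a branch through glycerol 3-phosphate also provides the backbone of triglycerides. Several steps exist as isoenzymes from separate genes, with 1 form typical of skeletal muscle. Skeletal muscle lies against several fat depots and can be cut out with them.

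Libraries of the same depot differed strongly before any member was looked at. Levels below are CPM (counts scaled to library size, corrected by the TMM method), unless TPM (per length) is named, and library values follow the order of replicates 1 to 3. The libraries held 15699912 to 25633413 counts. The summed level of 16 skeletal muscle markers was 20860, 14620 and 2428 CPM in BAT and 17320 CPM in RWAT replicate 3, and 17.14 to 81.53 CPM in the other 8 libraries, where between 0 and 4 of the 16 markers had no count. The 9 adipocyte markers summed to 24270, 24540 and 10500 CPM in BAT, 7395, 7683 and 5099 in EWAT, 30310, 22400 and 7755 in IWAT, and 23490, 4517 and 2808 in RWAT. The 11 macrophage markers summed to 1095, 1478 and 5570 CPM in BAT, 6171 to 8370 in EWAT, 1839, 3155 and 5971 in IWAT, and 1989, 5586 and 5154 in RWAT. EWAT replicates 2 and 3 also held transcripts of male germ cells, described further on. Adipoq and Plin1, which define fat cells, were present in all 12 libraries, and Wt1, a gene of intra-abdominal fat and its lining, was at 4.05 CPM or more in the EWAT and RWAT libraries and at most 0.157 CPM elsewhere. Ucp1, which defines brown fat, read 2960, 32.2 and 702 CPM in BAT, so the library labelled BAT replicate 2 lay below IWAT replicates 1 and 2 at 47.6 and 130 CPM. The 9 brown adipocyte markers together summed to 237.7 CPM in that library against 298.5 and 446.9 CPM in IWAT replicates 1 and 2, while Lhx8, 1 of the 9, was higher there, at 14.3 against 2.19 and 4.15 CPM. The test described below (edgeR) called 0 members in every comparison both with and without that library. Without BAT replicate 2, 31 members had an unadjusted p under 0.05 between BAT and the 3 white depots together, against 13.4% of all genes. With all libraries 30 members did, against 18.1% of all genes. The members' median log2 fold change was 1.71 without BAT replicate 2 and 1.65 with it.

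Most of the 41 members had their highest level in BAT and their lowest in EWAT. The mean level was highest in BAT for 34 members and lowest in EWAT for 25. The share of all genes with such an order is not given here. The 7 members with their highest mean in EWAT were Slc2a1, Slc2a3, Hk1, Hk3, Aldoc, Eno2 and Pdk3. On the TPM scale the numbers were 29 with the highest mean in BAT and 10 with the highest in EWAT, the additional 3 being Pgk1, Pgam1 and Pkm. BAT replicate 1 alone was the highest of all 12 libraries for 32 members in CPM and for 22 in TPM. These are levels of a tissue piece, in which fewer cells of a type and less RNA per cell cannot be told apart.

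**Figure D1:**
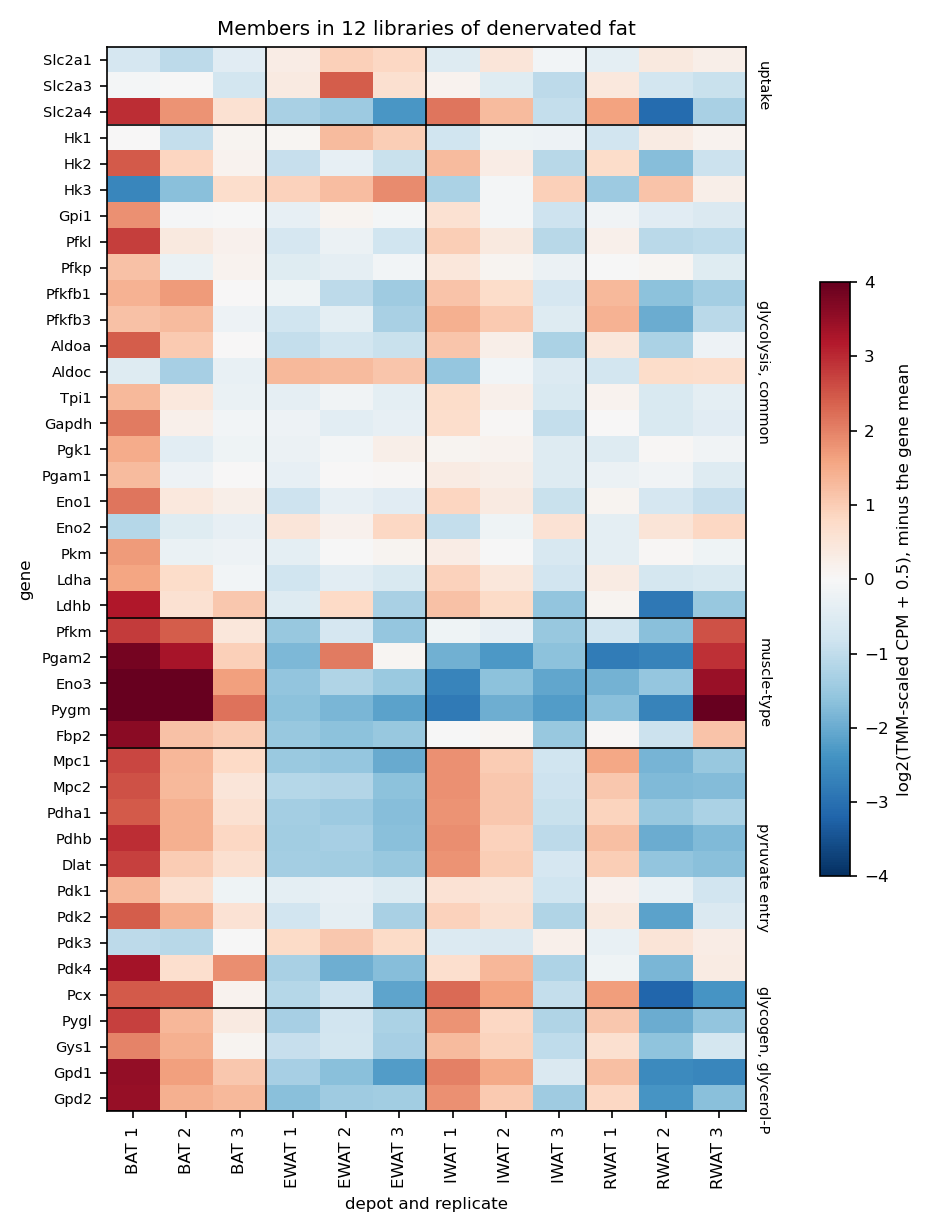
Level of the 41 members (rows) in the 12 libraries (columns, by depot and replicate), as log2(TMM-scaled CPM + 0.5) minus the mean of the gene, with colours ending at −4 and 4. The Eno3 and Pygm rows are darkest red in BAT replicates 1 and 2 and RWAT replicate 3 and paler in BAT replicate 3, and the pyruvate entry rows other than Pdk3 are blue in all 3 EWAT libraries.

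No member passed edgeR's quasi-likelihood test at a Benjamini-Hochberg adjusted p under 0.05 in any of the 7 comparisons of depots. Set against the white depots together (the mean of their 3 fitted levels), BAT had 0 of 41 members called, where 0.0992% of all 19154 genes tested were called, and the lowest adjusted p of a member was 0.0854 (Fbp2). At an unadjusted p under 0.05 stood 30 members, 27 higher and 3 lower in BAT, against 18.1% of all genes. DESeq2 called 16 members, 15 of them higher in BAT, against 4.97% of all genes, and limma-voom called 0. The median log2 fold change was 1.65 over the members and −0.07 over all genes. BAT replicate 1 weighed heavily on both values: without it 7 members had an unadjusted p under 0.05 (17.1% of the members, 5.38% of all genes) and the members' median was 0.85. Without the 3 libraries richest in muscle transcripts (BAT replicates 1 and 2 and RWAT replicate 3) the count was 6 (2.88% of all genes) and the median 0.25.

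BAT and EWAT stood furthest apart. The edgeR count was again 0 of 41, with 0.783% of all genes called and a lowest adjusted p of 0.0514, while 32 members had an unadjusted p under 0.05 against 27.7% of all genes. DESeq2 called 26 members, 22 higher and 4 lower in BAT, where it called 16.8% of all genes. The members' median log2 fold change was 2.17. Without BAT replicate 1 the count at an unadjusted p under 0.05 was 21 (17.4% of all genes) and the median 1.48. Without the 3 muscle-rich libraries they were 7 (6.56% of all genes) and 0.83. For 26 members every BAT library lay above every EWAT library, as it did for 19.1% of all genes, and for 6 members every BAT library lay below (17.8% of all genes). Those 6 were Slc2a1, Slc2a3, Hk3, Aldoc, Eno2 and Pdk3, a smaller share of the members than of all genes.

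BAT and IWAT differed least among the comparisons with BAT. Here edgeR called 0 members and 0.0104% of all genes, 7 members had an unadjusted p under 0.05 (3.85% of all genes), and DESeq2 called 3, namely Eno3, Pygm and Pgam2 (0.89% of all genes). The 5 members whose BAT libraries all lay above all IWAT libraries were the 5 muscle-type isoforms, against 3.61% of all genes. No member lay wholly below, against 3.22% of all genes. The members' median log2 fold change was 0.77 with all libraries and 0.04 without BAT replicate 1. In the latter fit 3 members had an unadjusted p under 0.05, against 2.15% of all genes. Without the 3 muscle-rich libraries the median was −0.17, with 14 members higher and 27 lower in BAT. Without BAT replicate 3, 15 members had an unadjusted p under 0.05, against 10.9% of all genes.

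Against RWAT, edgeR called 0 members in BAT with 0.0574% of all genes called, 19 members had an unadjusted p under 0.05 (14.8% of all genes), and DESeq2 called Pdk4 and Ldhb (1.91% of all genes). The 19 became 2 without BAT replicate 1 (4.82% of all genes) and 3 without RWAT replicate 2 (6.5%). They became 8 without RWAT replicate 3 (9.11% of all genes) and 29 without RWAT replicate 1 (23.7%). Taken against all 9 white libraries, BAT held no member wholly above (0.475% of all genes) or wholly below (0.757%), so the BAT and white ranges overlapped for all 41.

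Among white depots, IWAT and EWAT gave 0 edgeR calls with 0.345% of all genes called, and 16 members with an unadjusted p under 0.05 (16.2% of all genes). DESeq2 called 8 members there, 5 higher and 3 lower in IWAT, against 5.96% of all genes. Every IWAT library lay above every EWAT library for 8 members (11.8% of all genes), which were Slc2a4, Pdha1, Pdhb, Dlat, Pdk4, Mpc1, Mpc2 and Gpd1. Every IWAT library lay below for 5 members (13.1% of all genes), which were Slc2a3, Hk1, Aldoc, Eno3 and Pdk3. Those 5 were a share of the members near that of all genes. IWAT and RWAT gave 0 edgeR calls with 0% of all genes called, 2 members with an unadjusted p under 0.05 (4.42% of all genes) and 2 DESeq2 calls, Pygm and Eno3 (0.937% of all genes). EWAT and RWAT gave 0 edgeR calls with 0.0418% of all genes called, 6 members with an unadjusted p under 0.05 (9.04% of all genes) and 2 DESeq2 calls, Pygm and Fbp2 (2.86% of all genes). RWAT replicate 1 moved the comparisons with RWAT. Without it 18 members had an unadjusted p under 0.05 between IWAT and RWAT (13.3% of all genes), and 0 without RWAT replicate 3 (2.23%). Without RWAT replicate 1 the members' median log2 fold change between EWAT and RWAT turned from −0.44 to 0.28. Between IWAT and EWAT the 16 became 6 without EWAT replicate 2 (9.88% of all genes). They became 7 without IWAT replicate 1 (10.2%) and 8 without EWAT replicate 3 (10.8%). Between EWAT and RWAT the 6 became 2 without EWAT replicate 2 (5.18% of all genes). They became 3 without EWAT replicate 3 (6.77%) or RWAT replicate 3 (10.9%). limma-voom called 0 members in all of these comparisons. Comparisons that share a depot share its libraries and are not independent of each other.

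**Figure D2:**
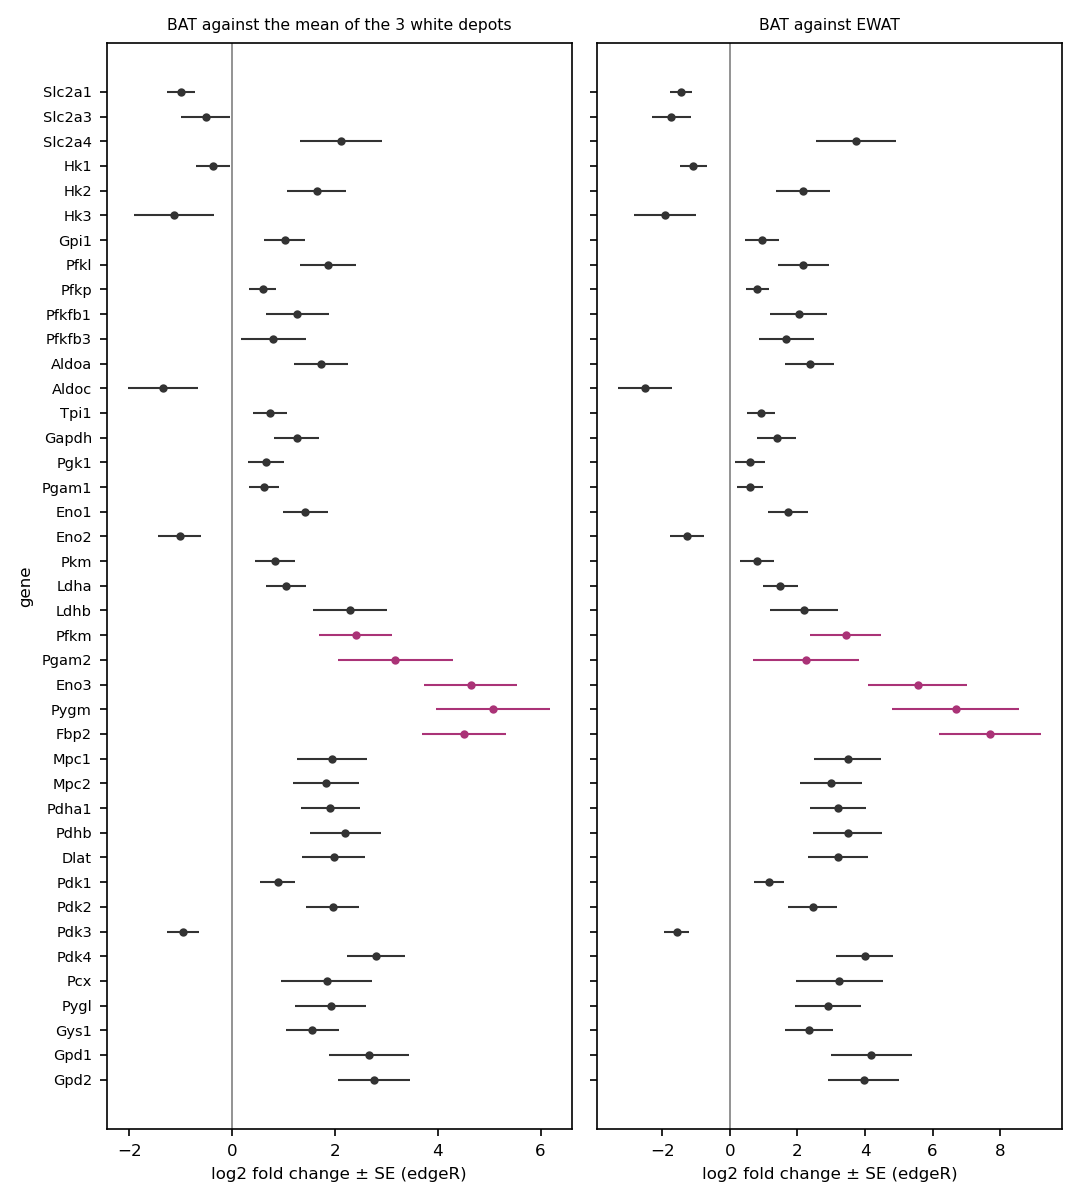
Log2 fold change with its standard error from edgeR for each member (rows), for BAT against the 3 white depots together (left) and BAT against EWAT (right), with the muscle-type isoforms in purple. Points right of the line at 0 are higher in BAT, as are 34 of 41 members in each panel, and no member was called in either.

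The high values of the muscle-type isoforms lay in the libraries with many muscle transcripts. From the lowest to the highest library, levels spanned 400-fold for Pygm, 212-fold for Pgam2, 211-fold for Eno3 and 23.5-fold for Pfkm, and up to 73.7-fold among common members (Ldhb). Pfkm, the muscle subunit of phosphofructokinase (chr15:98092589-98132451 on GRCm38), read 257, 194 and 49.9 CPM in BAT, 12.2, 22.4 and 12.1 in EWAT, 32.2, 28.9 and 12.2 in IWAT, and 20.8, 10.9 and 216 in RWAT. Eno3, the muscle enolase (chr11:70657202-70662513), read 452, 295 and 50.4 CPM in BAT, 4.96, 6.55 and 5.35 in EWAT, 2.14, 4.76 and 3.34 in IWAT, and 3.87, 5.14 and 180 in RWAT. For both genes the 3 BAT libraries and RWAT replicate 3 were the 4 highest of the 12. Pygm, the muscle glycogen phosphorylase (chr19:6384399-6398459), read 339, 272 and 41.7 CPM in BAT, 2.53, 2.18 and 1.65 in EWAT, 0.847, 1.94 and 1.51 in IWAT, and 2.44, 0.991 and 261 in RWAT, with the same 4 libraries on top.

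Pgam2, the muscle phosphoglycerate mutase (chr11:5801640-5803733), departed from that order in EWAT. It read 88.5, 60.8 and 11.7 CPM in BAT, 1.32, 26.3 and 6.1 in EWAT, 1.15, 0.775 and 1.51 in IWAT, and 0.417, 0.495 and 47.2 in RWAT. EWAT replicate 2 thus lay above BAT replicate 3. Fbp2, the muscle fructose bisphosphatase, which works against phosphofructokinase (chr13:62836877-62858422), was the lowest of the 5. It read 18.6, 3.07 and 2.69 CPM in BAT, 1.05, 1.16 and 0.0522 in IWAT, and 1.13, 0.36 and 2.99 in RWAT. In EWAT its libraries held 1, 0 and 1 counts, so its ratios there rest on 2 counts in all. The 338 counts of BAT against these 2 gave a ratio of 219 with an exact 95% interval of 60.1 to 1810, which covers counting error only.

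In BAT against the white depots together, edgeR's log2 fold change was 2.40 ± 0.71 (SE) for Pfkm (adjusted p = 0.149), 3.18 ± 1.12 for Pgam2 (adjusted p = 0.197), 4.64 ± 0.91 for Eno3 (adjusted p = 0.0857), 5.08 ± 1.12 for Pygm (adjusted p = 0.0992) and 4.51 ± 0.82 for Fbp2 (adjusted p = 0.0854). The fitted value of Fbp2 depends on the prior count. None of the 5 was called by edgeR in the fit of all 12 libraries, whereas DESeq2 called Pfkm, Eno3, Pygm and Fbp2. Without RWAT replicate 3, edgeR called all 5, with log2 fold changes of 3.20 for Pfkm, 4.88 for Pgam2, 5.91 for Eno3, 6.97 for Pygm and 4.85 for Fbp2, and no other member, where 1.25% of all genes were called. Without RWAT replicate 1 it called Eno3 of the 5, where 1.27% of all genes were called. With the 3 libraries richest in muscle transcripts left out (BAT replicates 1 and 2 and RWAT replicate 3), BAT was represented by replicate 3 alone, whose muscle markers still summed to 2428 CPM. Eno3 at 3.52 and Pygm at 4.60 were then the called members in this comparison (0.217% of all genes called), with the single BAT library assumed to vary like the others.

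Between EWAT and RWAT the muscle-type values turned on that same RWAT library. The log2 fold change was −2.40 ± 1.01 (SE) for Pfkm (edgeR adjusted p = 0.501), −3.48 ± 1.33 for Eno3 (adjusted p = 0.431), −5.37 ± 1.77 for Pygm (adjusted p = 0.35), −5.25 ± 1.48 for Fbp2 (adjusted p = 0.262) and −0.51 ± 1.50 for Pgam2 (adjusted p = 0.944). Without RWAT replicate 3 they were −0.04 for Pfkm, 0.31 for Eno3, 0.32 for Pygm, −4.25 for Fbp2 and 4.59 for Pgam2. The sign of 3 of the 5 therefore depended on 1 library.

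Set against the summed muscle markers of the same library, Pygm made up 1.63%, 1.86% and 1.72% in BAT and 1.51% in RWAT replicate 3. Eno3 made up 2.17%, 2.02% and 2.08% in BAT and 1.04% in RWAT replicate 3, Pfkm 1.23%, 1.33% and 2.06% against 1.24%, and Pgam2 0.424%, 0.416% and 0.482% against 0.273%. These proportions varied less than the marker sum, which ran from 2428 to 20860 CPM. Fbp2 did not keep such a proportion, at 0.0891%, 0.021% and 0.111% in BAT and 0.0173% in RWAT replicate 3. The part of muscle tissue in these levels was not tested.

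The promoters of the muscle-type isoforms are shown as a description, and a link to the proportions above was not tested. The motif CAGCTG, an E-box that myogenic factors can bind and that reads the same on both strands, was in the promoter windows of 4 of the 5 muscle-type isoforms (Eno3, Fbp2, Pgam2 and Pygm, not Pfkm). It was in 7 of the 33 common members with a window and in 16.3% of all 32851 windows of the same length. The genes with the motif were not the same as those that kept a proportion to the muscle markers. Pfkm kept a proportion without the motif, and Fbp2 had the motif but kept no proportion. The windows run from 250 bases before to 50 after the transcription start in RefSeq (GRCm38.p6), and 38 of 41 members had one. The GC box GGGCGG, searched on both strands, was in 0 of the 5 muscle-type windows, 25 of the 33 common ones and 35.7% of all. The hypoxia response core ACGTG was in 3 of 5, 18 of 33 and 19.6%, and the MEF2-type element CTANNNNTA in 1 of 5 (Pgam2), 6 of 33 and 21%. All were searched on both strands, matches of different motifs can overlap, and the search was made after the expression values were known. A match is a description and not a binding site. The following 4 windows, 5′ to 3′ on the strand of the gene with CAGCTG in capitals, set Pgam2 (chr11:5803747-5804046, minus strand) beside its common counterpart Pgam1 (chr19:41911621-41911920, plus strand), which has no CAGCTG, and add Eno3 (chr11:70656926-70657225, plus strand) and Pygm (chr19:6384158-6384457, plus strand).
Pgam2: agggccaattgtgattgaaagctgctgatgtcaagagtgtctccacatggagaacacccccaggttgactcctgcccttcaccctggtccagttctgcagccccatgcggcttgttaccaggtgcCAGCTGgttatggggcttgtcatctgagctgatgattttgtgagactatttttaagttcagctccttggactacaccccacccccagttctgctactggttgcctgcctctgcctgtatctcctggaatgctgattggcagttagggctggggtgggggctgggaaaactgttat
Pgam1: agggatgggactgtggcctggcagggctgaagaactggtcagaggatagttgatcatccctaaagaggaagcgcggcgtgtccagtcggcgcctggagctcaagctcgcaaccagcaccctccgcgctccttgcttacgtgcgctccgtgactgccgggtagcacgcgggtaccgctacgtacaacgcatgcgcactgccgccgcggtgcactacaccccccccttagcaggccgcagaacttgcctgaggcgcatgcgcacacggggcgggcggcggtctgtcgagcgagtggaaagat
Eno3: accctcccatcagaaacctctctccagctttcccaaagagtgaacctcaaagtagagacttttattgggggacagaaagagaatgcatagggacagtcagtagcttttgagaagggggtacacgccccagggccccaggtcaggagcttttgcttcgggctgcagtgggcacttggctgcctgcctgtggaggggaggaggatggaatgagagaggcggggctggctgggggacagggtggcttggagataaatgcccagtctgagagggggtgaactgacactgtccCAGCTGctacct
Pygm: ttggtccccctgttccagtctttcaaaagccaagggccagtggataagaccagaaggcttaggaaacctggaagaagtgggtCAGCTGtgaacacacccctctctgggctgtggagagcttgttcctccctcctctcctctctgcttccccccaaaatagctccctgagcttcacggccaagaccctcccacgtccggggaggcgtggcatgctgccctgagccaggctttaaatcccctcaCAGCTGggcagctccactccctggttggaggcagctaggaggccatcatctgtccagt
In Pgam2 the motif began 125 bases before the start, in Pygm 168 and 8 bases before it, and in Eno3 38 bases after it.

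Expressed as a share of the TPM of its enzyme family, the muscle-type form was a minor one in most white libraries. Pfkm made up 16.9%, 42.1% and 14.7% of phosphofructokinase TPM in BAT, 7.3% ± 1.95 (SD, n = 3) in EWAT and 7.28% ± 1.09 in IWAT, and 6.79%, 5.42% and 57.4% in RWAT. Eno3 made up 16.2%, 28.7% and 7.13% of enolase in BAT, and 0.799%, 1.77% and 36.8% in RWAT. Pygm made up 16.1%, 28.4% and 11.4% of glycogen phosphorylase in BAT, 2.07% ± 0.69 in EWAT, 0.879% ± 0.99 in IWAT, and 76.7% in RWAT replicate 3. In that single white library the muscle form was thus the main phosphorylase and the main phosphofructokinase transcript. Pgam2 made up 26.2%, 40.4% and 10.0% of phosphoglycerate mutase in BAT, 39.6% in RWAT replicate 3 and 20.1% in EWAT replicate 2, and 0.478% to 5.38% in the other 7 libraries.

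**Figure D3:**
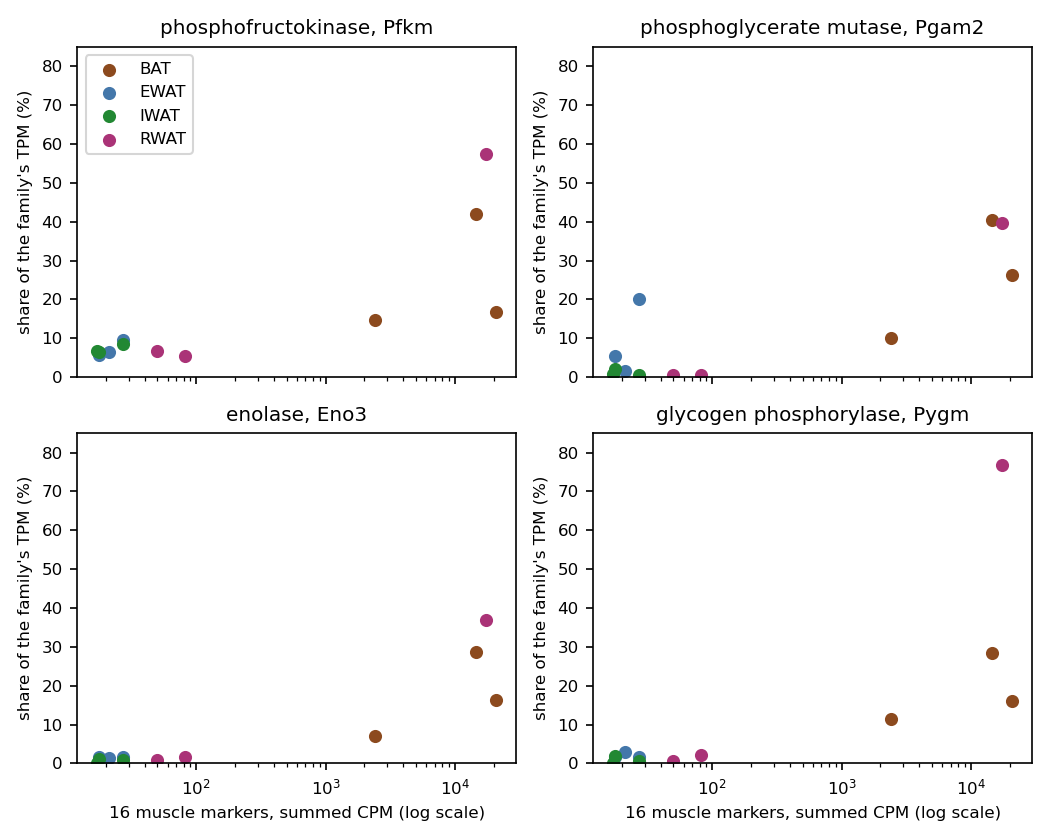
Share of the TPM of an enzyme family held by its muscle-type form (vertical axis, percent) against the summed CPM of 16 muscle markers (horizontal axis, log scale), 1 point per library. The 4 libraries from 2428 CPM upwards hold the highest shares, except that EWAT replicate 2 reaches 20.1% for Pgam2 at 27.19 CPM of muscle markers.

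Among the glucose carriers, Slc2a4 and Slc2a1 had opposite orders of depots. Slc2a4 (chr11:69942539-69948188) read 624, 284 and 122 CPM in BAT, 32.8, 28.9 and 15.6 in EWAT, 360, 196 and 41.6 in IWAT, and 248, 9.05 and 32.5 in RWAT. The depot means ran from BAT (343 ± 256 CPM, SD, n = 3) through IWAT (199 ± 159) and RWAT (96.4 ± 132) to EWAT (25.8 ± 9.05), and only the BAT and IWAT libraries lay wholly above those of EWAT. No neighbours in this order differed beyond their spread. The log2 fold change between BAT and the white mean was 2.12 ± 0.80 (SE, edgeR adjusted p = 0.222). Between EWAT and RWAT it was −1.90 ± 1.11 (adjusted p = 0.685), and 0.31 without RWAT replicate 1.

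Slc2a1 (chr4:119108711-119137983) read 13.3, 10.1 and 15.5 CPM in BAT, 26.1, 42.1 and 38.4 in EWAT, 14.8, 29.9 and 19.6 in IWAT, and 16, 28.2 and 25.1 in RWAT. All BAT libraries lay below all EWAT libraries, with a log2 fold change of −1.45 ± 0.32 (SE, edgeR adjusted p = 0.0626; adjusted p = 0.00136 in DESeq2). Slc2a3 was highest in EWAT at 57.1 ± 48 CPM, where replicate 2 held 112 CPM, and averaged 15.6 to 17.2 CPM in the other depots. As a share of the TPM of these 3 carriers, Slc2a4 held 91.5% ± 4.87 in BAT, 79.7% ± 15.2 in IWAT, 54.2% ± 32.6 in RWAT and 26.1% ± 12.5 in EWAT. EWAT was the depot in which Slc2a1 and Slc2a3 together outweighed Slc2a4 in all 3 libraries, at a Slc2a4 share of 40.5%, 18.6% and 19.1%.

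The hexokinases followed the carriers. Hk2, the form paired with GLUT4 in insulin-responsive tissue, read 722, 241 and 147 CPM in BAT, 70, 106 and 71.2 in EWAT, 318, 161 and 61.2 in IWAT, and 221, 40.2 and 73 in RWAT. Every BAT library lay above every EWAT library. Hk1, the widespread form, averaged 85.5 ± 33.2 CPM in EWAT and 36.2 to 45.5 in the other depots. Hk3, which is best known from myeloid cells, ran from 4.17 CPM in BAT replicate 1 to 104 CPM in EWAT replicate 3. Hk2 therefore held 92.1%, 85% and 55.8% of hexokinase TPM in BAT but 37.9%, 28.6% and 22.1% in EWAT. The summed TPM of the 3 hexokinases was similar across depots, at 132 ± 38.6 in BAT, 154 ± 56 in EWAT, 109 ± 12.6 in IWAT and 109 ± 16.4 in RWAT, with overlapping libraries.

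Among the 7 members with their highest mean in EWAT, all but Slc2a3 were highest within BAT in the library with the most macrophage transcripts. Slc2a3 was lowest in that BAT library. The margin was small for Slc2a1, at 13.3, 10.1 and 15.5 CPM in BAT, and for Hk1, at 46.8, 23.8 and 50.5 CPM. Macrophage sums were 6171 CPM or more in all EWAT libraries and at most 5971 CPM elsewhere. Within BAT the sum was highest in replicate 3, at 5570 CPM, where Hk3 read 45.8 CPM against 4.17 and 8.37 in replicates 1 and 2. Pdk3 likewise read 5.43, 5.17 and 11.5 CPM in BAT and 20.4, 25.2 and 20.3 in EWAT. Aldoc and Eno2, the brain-type aldolase and the neuronal enolase, stayed low throughout, at 0.0996 to 3.75 and 1.57 to 7.72 CPM. Slc2a3 was lowest in replicate 3 of both BAT and IWAT, where the macrophage sum was highest. It read 12.1 CPM in BAT replicate 3 against 19.4 and 20.2, and 9.77 CPM in IWAT replicate 3 against 22.5 and 14.4. Within EWAT, however, Slc2a3 at 26.3, 112 and 32.5 CPM had the order of the macrophage sums, at 6171, 8370 and 7910 CPM. Hk3 did not have that order there, at 53, 66.4 and 104 CPM. The part of macrophages in these levels was not tested.

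Several common enzymes of the glycolytic chain had narrower ranges than Slc2a4, which spanned 68.9-fold over the 12 libraries. The range was 13-fold for Aldoa, 8.3-fold for Gapdh and 5.06-fold for Pkm. It was wider for others, at 37.6-fold for Aldoc, which was low throughout, and 73.7-fold for Ldhb. Aldoa, the main aldolase, read 5950, 2260 and 1120 CPM in BAT, 568, 658 and 594 in EWAT, 2380, 1300 and 458 in IWAT, and 1500, 459 and 957 in RWAT. Gapdh, which makes the NADH of the chain, read 2590, 701 and 565 CPM in BAT, 534, 457 and 485 in EWAT, 994, 627 and 312 in IWAT, and 616, 403 and 441 in RWAT. In both, BAT replicate 1 stood far above its fellow libraries, and every BAT library was above every EWAT library. Pkm, the pyruvate kinase of most tissues, read 2690, 694 and 716 CPM in BAT, 640, 818 and 887 in EWAT, 1010, 818 and 531 in IWAT, and 631, 850 and 734 in RWAT, so that outside BAT replicate 1 the depots overlapped.

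The common counterparts of the muscle-type isoforms were less uneven than these isoforms. Pfkl, the liver-type phosphofructokinase, read 934, 181 and 156 CPM in BAT, 85.6, 117 and 78.6 in EWAT, 272, 180 and 63.1 in IWAT, and 159, 65.2 and 67.2 in RWAT. Pfkp, the platelet-type subunit, read 193, 70.9 and 93.3 CPM in BAT, 60.4, 65.8 and 78.2 in EWAT, 115, 90.5 and 72.4 in IWAT, and 84.7, 88.6 and 61.1 in RWAT. Neither was high in RWAT replicate 3, in contrast to Pfkm. Pgam1 read 572, 206 and 241 CPM in BAT, 187, 240 and 246 in EWAT, 300, 280 and 165 in IWAT, and 200, 215 and 165 in RWAT, a 3.47-fold range over all 12 libraries. Eno1 read 2620, 792 and 704 CPM in BAT, 335, 478 and 436 in EWAT, 1090, 762 and 322 in IWAT, and 637, 371 and 312 in RWAT. Pgam2 and Eno3 had ranges of 212-fold and 211-fold over the same libraries.

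The remaining glycolytic members are given by their depot means. Gpi1, Tpi1 and Pgk1 averaged 592 ± 475, 533 ± 289 and 179 ± 139 CPM in BAT and 305 ± 43.6, 281 ± 30 and 120 ± 20 CPM in EWAT. The Pgk1 mean in BAT rested on replicate 1 at 339 CPM, since replicates 2 and 3 read 90.5 and 108 CPM and EWAT 103, 115 and 142, and in TPM its mean was higher in EWAT (118 ± 31.9) than in BAT (99.6 ± 40.5). Pgk1 is the member whose counts were least certain, with a posterior SD of up to 7.05% of the count, followed by Gapdh at 2.46%. Both have many processed copies in the genome. Pfkfb1 and Pfkfb3, which make the activator fructose 2,6-bisphosphate, averaged 49.1 and 456 CPM in BAT, 31.8 and 451 in IWAT, 22.1 and 277 in RWAT, and 12 and 143 in EWAT. Summed over isoforms, aldolase TPM was 2420 ± 1150 in BAT and 874 ± 142 in EWAT, enolase 1310 ± 496 and 602 ± 131, and phosphoglycerate mutase 226 ± 46.1 and 215 ± 62.2. The mutase sums of the depots thus overlapped.

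Lactate dehydrogenase interconverts pyruvate and lactate. Ldha, its muscle-type subunit, which most tissues make, read 2210, 1230 and 692 CPM in BAT, 429, 555 and 488 in EWAT, 1400, 1020 and 442 in IWAT, and 944, 457 and 491 in RWAT. Ldhb, its heart-type subunit, read 379, 61.6 and 86.8 CPM in BAT, 28.4, 70.4 and 16 in EWAT, 92, 69.5 and 13.3 in IWAT, and 43.2, 5.14 and 13.9 in RWAT. All BAT libraries exceeded all EWAT libraries for Ldha but not for Ldhb, for which EWAT replicate 2 lay above BAT replicate 2. Ldhb held 14.7% ± 6.91 of the summed TPM of both in BAT, 10.1% ± 5.76 in EWAT, 7.86% ± 2.82 in IWAT and 4.36% ± 2.29 in RWAT.

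The genes that carry pyruvate into mitochondria and oxidise it had their lowest depot mean in EWAT. Mpc1 and Mpc2, the subunits of the mitochondrial pyruvate carrier, were low in all 3 EWAT libraries and in RWAT replicates 2 and 3. Mpc1 read 1140, 451 and 315 CPM in BAT, 64.7, 61.1 and 44.4 in EWAT, 644, 368 and 104 in IWAT, and 532, 48.8 and 62.3 in RWAT. Mpc2 read 630, 265 and 153 CPM in BAT, 48.8, 48.3 and 34.7 in EWAT, 384, 228 and 60.8 in IWAT, and 228, 31.2 and 32.1 in RWAT. Pdha1, the catalytic alpha subunit of pyruvate dehydrogenase, read 2010, 976 and 557 CPM in BAT, 143, 133 and 113 in EWAT, 1270, 776 and 196 in IWAT, and 680, 127 and 153 in RWAT. Pdhb, the beta subunit, averaged 590 ± 464 CPM in BAT and 52.7 ± 6.64 in EWAT, and Dlat, the acetyltransferase core, 430 ± 353 and 46.6 ± 2.61. For all 5 of these genes the BAT and the IWAT libraries lay wholly above those of EWAT, while RWAT spanned both.

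The log2 fold change between BAT and EWAT, given for a few members chosen after their values were seen, was 3.48 ± 1.00 (SE) for Mpc1 (edgeR adjusted p = 0.0778) and 3.19 ± 0.83 for Pdha1 (adjusted p = 0.0693). DESeq2 called both, with adjusted p of 0.00196 and 0.000899. In edgeR, where all 12 libraries share 1 estimate of the spread, both were called once RWAT replicate 1, a library outside that comparison, was left out (14 members and 6.86% of all genes called). Both were also called in a fit of the BAT and EWAT libraries alone, in which 19 members and 5.81% of all genes passed.

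Pyruvate dehydrogenase kinases switch the complex off. Pdk4, the form induced by fasting and fatty acids, read 862, 137 and 313 CPM in BAT, 35, 21.9 and 25.9 in EWAT, 138, 218 and 36.3 in IWAT, and 76.8, 23.7 and 107 in RWAT. It had the lowest adjusted p of the common members between BAT and EWAT, at a log2 fold change of 3.98 ± 0.85 (SE, edgeR adjusted p = 0.0591; DESeq2 adjusted p = 1.57e-05). Pdk2 averaged 102 ± 63.5 CPM in BAT and 18.6 ± 6.16 in EWAT, and Pdk1 136 ± 67.9 and 61.1 ± 3.95. Pdk3 had the opposite order, with a log2 fold change of −1.57 ± 0.37 between BAT and EWAT (edgeR adjusted p = 0.0638; DESeq2 adjusted p = 0.00163). Of the TPM of the 4 kinases, Pdk4 held 47.0% ± 19 in BAT and 14.5% ± 3.86 in EWAT. Both the complex and the kinase that restrains it were thus at their highest mean level in BAT.

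Pcx, pyruvate carboxylase, feeds pyruvate into oxaloacetate for fatty acid synthesis. It read 3280, 3220 and 671 CPM in BAT, 275, 342 and 140 in EWAT, 2900, 1840 and 313 in IWAT, and 1920, 66.3 and 118 in RWAT. IWAT replicates 1 and 2 and RWAT replicate 1 lay well above BAT replicate 3. The log2 fold change between BAT and EWAT was 3.24 ± 1.28 (SE, edgeR adjusted p = 0.14; DESeq2 adjusted p = 0.0227).

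**Figure D4:**
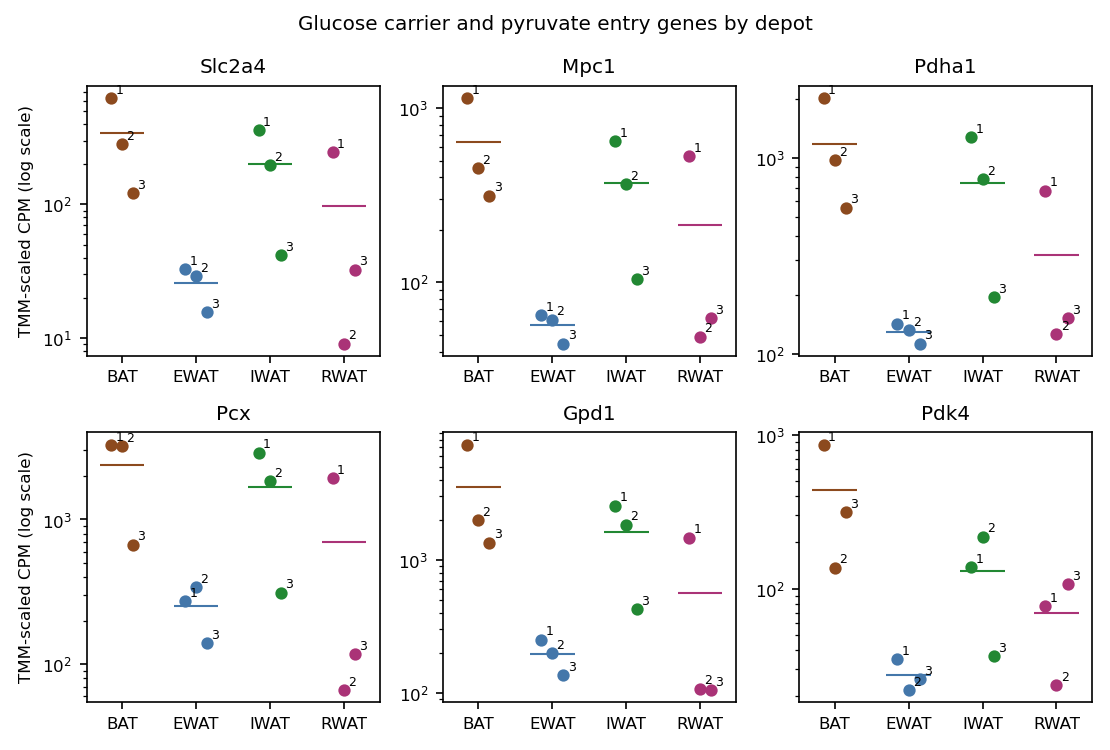
TMM-scaled CPM (log scale) of Slc2a4, Mpc1, Pdha1, Pcx, Gpd1 and Pdk4 in the 4 depots, with 1 point per library labelled by its replicate and a line at the mean. The EWAT libraries lie below every BAT library in each panel, with RWAT replicates 2 and 3 at a similar level or lower except RWAT replicate 3 for Pdk4, and RWAT replicate 1 lies above RWAT replicate 2 in all 6.

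Glycerol 3-phosphate dehydrogenases had some of the widest ranges among common members. Gpd1, the cytosolic enzyme that makes glycerol 3-phosphate, read 7330, 1990 and 1350 CPM in BAT, 252, 200 and 136 in EWAT, 2560, 1840 and 430 in IWAT, and 1470, 108 and 105 in RWAT. Gpd2, the mitochondrial partner in the glycerol phosphate shuttle, read 1250, 298 and 271 CPM in BAT, 34.4, 41 and 42.2 in EWAT, 393, 229 and 41.4 in IWAT, and 197, 21.1 and 34.7 in RWAT. For both, the BAT libraries lay wholly above those of EWAT. Their log2 fold changes between BAT and EWAT were 4.18 ± 1.20 (SE, edgeR adjusted p = 0.0769) and 3.96 ± 1.06 (adjusted p = 0.0703), and DESeq2 called both, at adjusted p of 0.000771 and 0.000581.

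Glycogen was represented by its common phosphorylase and its synthase beside Pygm. Pygl, the liver-type phosphorylase, read 1380, 518 and 268 CPM in BAT, 83, 122 and 85.5 in EWAT, 715, 365 and 90.1 in IWAT, and 441, 51.6 and 69 in RWAT. Gys1, glycogen synthase, averaged 202 ± 114, 39.8 ± 8.55, 125 ± 78.1 and 65.3 ± 50.8 CPM in BAT, EWAT, IWAT and RWAT. Pygl was low in RWAT replicate 3, where Pygm was high, and the summed phosphorylase TPM there was 188 against 239 and 38.0 in RWAT replicates 1 and 2.

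The levels of the pyruvate entry genes moved with those of adipocyte markers and with the share of counts from the mitochondrial genome. That share was 19.0%, 13.0% and 13.4% in BAT, 4.87%, 4.57% and 3.56% in EWAT, 12.1%, 10.2% and 4.4% in IWAT, and 11.6%, 3.28% and 3.79% in RWAT. Set against the summed adipocyte markers of the same library, Mpc1 came to 4.68%, 1.84% and 3.0% in BAT, 0.875%, 0.795% and 0.87% in EWAT, 2.12%, 1.64% and 1.34% in IWAT, and 2.27%, 1.08% and 2.22% in RWAT. EWAT thus remained lowest for Mpc1 on that scale. Of 12 genes of uptake, pyruvate entry, glycogen and glycerol phosphate set against the markers, 4 (Mpc1, Mpc2, Pdha1 and Dlat) were lower in all EWAT libraries than in all 9 others, as were 0.444% of all genes tested. The 12 were chosen with their levels known. Gpd1 was not among them, at 3.4%, 2.6% and 2.67% in EWAT and 2.39% in RWAT replicate 2, and neither was Slc2a4, at 0.305% to 0.444% in EWAT and 0.2% in RWAT replicate 2. The part of adipocyte content in the levels of these genes was not tested further.

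Germ cell isoenzymes of the same pathway appeared in EWAT, the depot that lies on the epididymis. The 12 germ cell genes, a list chosen after the values were seen, summed to 486.5 CPM in EWAT replicate 2 and 147.2 in EWAT replicate 3, 1.899 in EWAT replicate 1, and at most 0.7754 CPM in the other 9 libraries. They include Ldhc, the sperm lactate dehydrogenase, at 145 and 48.3 CPM in EWAT replicates 2 and 3. Pgk2, the sperm phosphoglycerate kinase, read 26.8 and 15.2 CPM there, and Gapdhs, the sperm form of Gapdh, 21.4 and 7.95. Among the members higher in both of these libraries than in EWAT replicate 1, 3 were picked after their values were seen, Pgam2 at 26.3 and 6.1 CPM against 1.32 in EWAT replicate 1, Hk1 at 114 and 93.4 against 49.1, and Slc2a3 at 112 and 32.5 against 26.3. Other members had the same order, such as Slc2a1 at 42.1 and 38.4 against 26.1, Hk3 at 66.4 and 104 against 53, and Pkm at 818 and 887 against 640. Leaving out both libraries was a choice made after seeing the data, and it leaves EWAT with 1 library. The members' median log2 fold change was then 2.40 between BAT and EWAT, 1.05 between IWAT and EWAT and −0.61 between EWAT and RWAT. With all 12 libraries these medians were 2.17, 0.80 and −0.44. The shift rests on EWAT replicate 1 alone, which gives no spread within EWAT, so it does not show that these contrasts hold or grew. EWAT replicate 1 held epididymis genes instead, with Crisp1 at 1140 and Adam7 at 215 CPM. The part of germ cells in the levels of Pgam2, Hk1 and Slc2a3 was not tested.

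**Figure D5:**
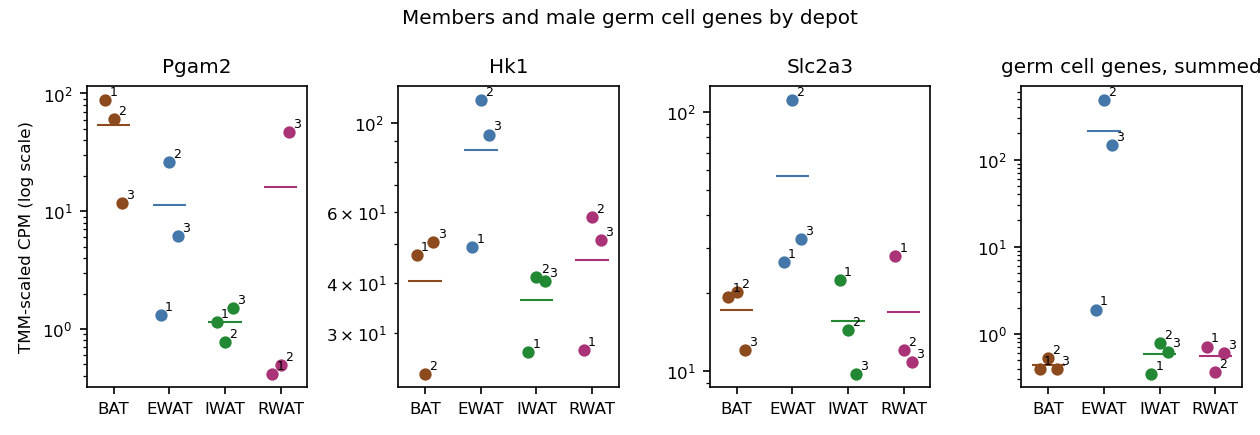
TMM-scaled CPM (log scale) of Pgam2, Hk1, Slc2a3 and the sum of 12 male germ cell genes in the 4 depots, with 1 point per library labelled by its replicate and a line at the mean. EWAT replicate 2 is highest for Hk1, Slc2a3 and the germ cell sum, and EWAT replicate 1 lies lowest of EWAT in all 4 panels.

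Other genes of the pathway formed a list of 62 carriers, enzymes and regulators. Of these, 54 passed the filter, and edgeR called 0 of them in each of the 7 comparisons. Between BAT and the white mean 29 had an unadjusted p under 0.05 (53.7%, against 18.1% of all genes), 28 of them higher in BAT, and the median log2 fold change was 0.85. Between BAT and EWAT 33 did (61.1%, against 27.7%), 29 of them higher in BAT, and the median was 1.19. The numbers were 4 for BAT against IWAT (7.41%, against 3.85% of all genes), 17 for BAT against RWAT (31.5%, against 14.8%) and 14 for IWAT against EWAT (25.9%, against 16.2%). They were 1 for IWAT against RWAT (1.85%, against 4.42%) and 6 for EWAT against RWAT (11.1%, against 9.04%), near or below the share of all genes. DESeq2 called 6 of them between BAT and the white mean (4.97% of all genes called), namely the glycogen targeting subunits Ppp1r3b and Ppp1r3c, the carrier Slc2a12, the phosphatase Pdp2, Dld of the pyruvate dehydrogenase complex, and Ugp2 of glycogen synthesis, all higher in BAT. It called 24 between BAT and EWAT (16.8% of all genes called), all higher in BAT, and 2 between BAT and RWAT (1.91%). It called 3 between IWAT and EWAT (5.96% of all genes called) and 1 between EWAT and RWAT (2.86%). It called 0 between BAT and IWAT (0.89% of all genes called) and 0 between IWAT and RWAT (0.937%). limma-voom called 0 throughout.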

How the data were processed

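RNA-seq was made from total RNA after depletion of ribosomal RNA, with single-end reads of 75 bases, per the labels' protocols. Per the submitters' processing notes, the tools were Trimmomatic 0.36, RSEM 1.3.0 and DESeq2 1.10.1, with build GRCm38.p4. The annotation and the use of strand in counting are not given in the labels or headers. The authors deposited expected counts per gene and TPM, with a posterior SD of each count, per the file headers. Gene coordinates are from GENCODE M21 on GRCm38, where 47224 of 47729 identifiers were found.

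Expected counts were rounded and tested with edgeR 4.0.16 (R 4.3.3): filterByExpr (19154 genes left), TMM, 1 quasi-likelihood fit of 12 libraries with 1 coefficient per depot, Benjamini-Hochberg adjustment over all genes tested and a threshold of 0.05. The mean of the white depots is the mean of 3 fitted log2 levels. TPM was used for shares and sums of isoforms only, with no test. Alternatives were DESeq2 1.42.0, limma-voom (limma 3.58.1), a replicate block, scaling by RLE or by library size alone, dropping the filter or requiring 1 CPM in 3 libraries, a fit of only the depots compared, and leaving out libraries. The procedure was tested on simulated counts.

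Library totals were 15699912 to 25633413 counts. A count of 0 allows 3 counts, at most 0.191 CPM, for counting error only. Libraries of the same depot differed beyond sampling noise (chi-square per degree of freedom at least 47.98), so no pair was treated as 1 library.

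The members, the lists and the tests were chosen with earlier results of these data known. All 41 members are accounted for. Library values are given for the muscle-type isoforms, their common counterparts and selected carriers and enzymes, and fold changes for muscle-type isoforms and Slc2a4 in 2 comparisons. The 8 members with a fold change between BAT and EWAT, and the germ cell list, were chosen after their values were seen.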

Additional observations from a re-analysis of the deposited data

How the results depend on the processing

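The count of members called was 0 in each comparison with all 12 libraries in edgeR and depended on the tool and on single libraries. DESeq2 called 16 (BAT against the white mean), 26 (BAT against EWAT), 3 (BAT against IWAT), 2 (BAT against RWAT), 8 (IWAT against EWAT), 2 (IWAT against RWAT) and 2 (EWAT against RWAT). Between BAT and EWAT, library sizes without TMM gave 1 (Fbp2, with 1.22% of all genes called) and no filter 2 (Fbp2 and Pdk4, 0.589%). A fit of only those depots gave 19 (5.81% of all genes called). Leaving out the 3 libraries with the most muscle transcripts left BAT with 1 library. The members' median log2 fold change was then 0.25 for BAT against the white mean, 0.83 against EWAT and −0.17 against IWAT. Leaving out 1 library gave 0 to 6 calls for BAT against the white mean. The count was 6 without RWAT replicate 1 (1.27% of all genes called) and 5 without RWAT replicate 3 (1.25%). For BAT against EWAT 0 to 16 were called. The count there was 16 without BAT replicate 3 (9.7% of all genes called), 14 without RWAT replicate 1 (6.86%) and 4 without RWAT replicate 3 (1.81%). It was 2 without EWAT replicate 1 (5.62%) and 1 without IWAT replicate 3 (0.49%). BAT against IWAT and against RWAT gave 0 to 2, with 2 in each without RWAT replicate 3 (0.471% and 0.219% of all genes called). The other 3 comparisons gave 0. limma-voom, RLE scaling and the filter of 1 CPM gave 0 everywhere. The cause was not tested. With the replicate number as a block, 11 members were called for BAT against the white mean (3.39% of all genes called) and 25 for BAT against EWAT (18.5% of all genes), and 0 elsewhere. The numbers were not taken as pairs, because the labels give no animal for a library. The correlations between libraries do not settle whether the numbers mark pairs. Of 18 same-number pairs 10 correlated above 0.1, from −0.347 to 0.677, and 8 of 12 libraries correlated best with their own number. The count of members called thus depends on this choice.

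Of 433 alternative values of 20 fold changes, 10 changed sign, all between EWAT and RWAT. Pgam2 (−0.51) became 1.55 in limma-voom, 0.10 with the block and 4.58 without the 3 muscle-rich libraries (−2.10 to 4.59 over single libraries left out, with 0.01 without EWAT replicate 1). Eno3 (−3.48) and Pygm (−5.37) became 0.30 each without the muscle-rich libraries. Over single libraries left out Eno3 ran from −4.04 to 0.31 and Pygm from −5.95 to 0.32, the highest without RWAT replicate 3, and Slc2a4 from −2.45 to 0.31, the highest without RWAT replicate 1. Library sizes without TMM moved the median of all genes to −0.46 for BAT against the white mean and −0.60 for BAT against EWAT. All 41 members kept their sign in the former, and Pgk1 and Pgam1 changed sign in the latter. In CPM rather than TPM, 2 of 64 isoform shares and 13 of 128 step sums moved beyond 1 SD. The biological coefficient of variation was 0.448, and no alternative varied the depth.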

Other observations

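Glyceroneogenesis and glycogen synthesis are represented by genes outside the 41, named after their values were seen. Pck1, the cytosolic phosphoenolpyruvate carboxykinase that supplies glycerol 3-phosphate from pyruvate, read 3930, 2640 and 1160 CPM in BAT, 84.1, 239 and 119 in EWAT, 2800, 3310 and 641 in IWAT, and 1420, 149 and 131 in RWAT. Every BAT and every IWAT library lay above every EWAT library, and DESeq2 called it in both of these comparisons, where edgeR did not. Gys2, the liver-type glycogen synthase, read 142, 56.6 and 20.2 CPM in BAT, 1.85, 0.899 and 0.95 in EWAT, 110, 47 and 10.7 in IWAT, and 81.2, 0.495 and 1.09 in RWAT. RWAT replicate 1 thus stood with BAT and IWAT for this gene, and RWAT replicates 2 and 3 with EWAT. Dld, the dehydrogenase subunit that pyruvate dehydrogenase shares with other complexes, read 694, 265 and 241 CPM in BAT and 72.2, 74.9 and 68 in EWAT, an order like that of Pdha1 and Dlat.

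Fbp1, the liver-type fructose bisphosphatase, did not pass the filter on low counts, yet it read 26.6 and 7.85 CPM in EWAT replicates 2 and 3, the libraries with germ cell transcripts, and at most 0.589 CPM in the other 10. Fbp2 had 0 and 1 counts in those same 2 libraries.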
